A study of Mus musculus with 196 samples.

Results

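Tail skin arrays with high and low levels of the inner root sheath keratins were compared across all other genes. Each of 97 tail arrays was ranked by the mean log2 expression of Krt25, Krt27, Krt71 and Krt73, and the 32 highest arrays (the upper group) were set against the 32 lowest (the lower group), with 33 arrays between them (the middle group). The arrays were thus chosen by measured values, those of the 4 keratins. These 64 arrays are part of 196 arrays of skin from 100 mice. All mice were untreated, 8 weeks old and from a backcross in which F1 females of FVB/N mothers and Mus spretus fathers were crossed to FVB/N males, so every animal carries its own mixture of the strains. Of the tails, 48 came from females and 49 from males. Tail skin was frozen whole, so each array mixes follicles, epidermis, dermis and deeper tissue, and fewer cells of a type cannot be told apart from less RNA per cell. No hair cycle stage is given for the tail in the labels. The only stage label is for dorsal skin, anagen or non-anagen, and the keratin mean is a stand-in for hair growth in the tail rather than a measure of it.

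A hair follicle passes through growth (anagen), regression and rest. In anagen the matrix at the base of the follicle divides and gives rise to the shaft and to the inner root sheath, a sleeve that guides the shaft and breaks down before the hair emerges. The sheath carries its own keratins, type I (Krt25 and Krt27) and type II (Krt71 and Krt73), and its cells cross-link them with trichohyalin. The shaft is built from hard keratins and from keratin-associated proteins, which embed them. Sheath and most shaft keratins are made in the growing follicle, while tail skin also has scales whose epidermis makes some hard keratins outside the hair.

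The 4 ranking keratins lie in both keratin gene clusters of the mouse, and their promoters are shown because these genes moved together and decided the ranking. The sequences are the 250 bases before each RefSeq start on GRCm38.p6, minus strand, written 5′ to 3′, with the letters AGATAA in capitals, a form of the site that GATA factors bind. Krt25 is at chr11:99322952-99323201, Krt27 at chr11:99351119-99351368, Krt71 at chr15:101743098-101743347 and Krt73 at chr15:101802361-101802610.
Krt25: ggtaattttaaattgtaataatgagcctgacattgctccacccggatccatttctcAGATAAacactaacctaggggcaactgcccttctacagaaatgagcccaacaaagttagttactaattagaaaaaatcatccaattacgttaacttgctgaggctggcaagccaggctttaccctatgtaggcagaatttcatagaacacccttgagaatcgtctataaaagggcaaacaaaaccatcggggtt
Krt27: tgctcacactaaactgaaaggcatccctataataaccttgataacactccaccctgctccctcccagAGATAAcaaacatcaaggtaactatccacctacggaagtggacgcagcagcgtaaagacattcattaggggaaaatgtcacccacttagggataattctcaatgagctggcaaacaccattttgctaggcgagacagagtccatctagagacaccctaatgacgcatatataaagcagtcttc
Krt71: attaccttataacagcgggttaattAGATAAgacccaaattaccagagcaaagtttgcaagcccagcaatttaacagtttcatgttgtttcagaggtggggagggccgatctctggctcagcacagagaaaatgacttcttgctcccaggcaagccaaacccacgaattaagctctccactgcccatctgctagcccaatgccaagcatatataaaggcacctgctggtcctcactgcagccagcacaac
Krt73: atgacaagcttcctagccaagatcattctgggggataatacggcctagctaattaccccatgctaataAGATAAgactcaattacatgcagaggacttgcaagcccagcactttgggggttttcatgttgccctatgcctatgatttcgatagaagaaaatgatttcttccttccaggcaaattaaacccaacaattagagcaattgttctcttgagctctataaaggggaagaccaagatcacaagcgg
Each of the 4 held AGATAA once, as written, starting at -194 (Krt25), -183 (Krt27), -225 (Krt71) and -182 (Krt73) from the start, and each also held TATAAA, the core of the TATA box. Over all 32851 RefSeq promoters of this length, AGATAA or its reverse TTATCT was present in 9.99%, and TATAAA or its reverse TTTATA in 12.4%. These motifs were chosen after the sequences had been read, and a match in letters is a description and not a binding site.

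The ranking keratins spanned a wide range in the tail. The keratin mean had its lowest, median and highest values at 10.72, 11.10 and 11.53 in the upper group, at 9.92, 10.34 and 10.69 in the middle group, and at 6.48, 9.17 and 9.85 in the lower group. These values chose the groups and carry no test. Neighbours at the edges were close: rank 32 stood at 10.72 and rank 33 at 10.69, and rank 65 at 9.92 and rank 66 at 9.85. The ranking is therefore a gradient with no gap at either edge, and its only wide gap, 1.36, lay between the last array at 6.48 and the one before it at 7.85.

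The groups were cut on the mean of the 4 keratins, so the separation of the groups for each keratin is a description. Krt25 ran from 11.36 to 12.11 in the upper group (median 11.81) and from 6.89 to 10.84 in the lower group (median 9.97). Krt71, a type II keratin, ran from 11.45 to 12.26 (median 11.93) and from 7.11 to 10.96 (median 10.09). Krt27 ran from 9.82 to 11.04 (median 10.41) and from 5.84 to 9.02 (median 8.47), and Krt73 from 9.70 to 10.98 (median 10.29) and from 6.09 to 9.14 (median 8.17). The upper and lower group did not overlap for any of the 4, and the lower group was the more spread out. Pearson's r over the 97 tails, which share arrays and RNA, lay between 0.95 and 0.99 for the 6 pairs of these keratins.

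**Figure D1:**
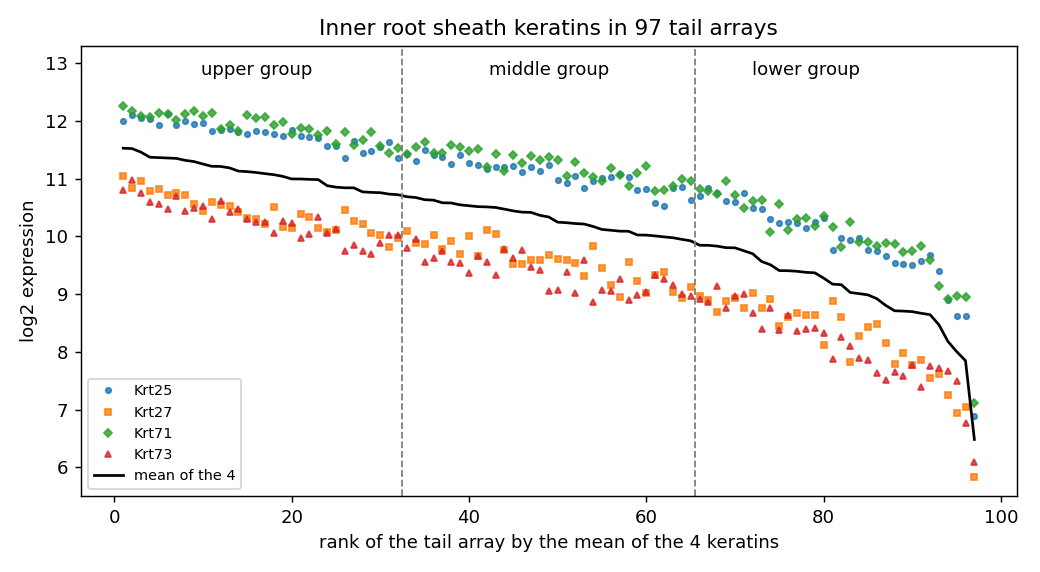
Log2 expression of Krt25, Krt27, Krt71 and Krt73 (points) and their mean (line) in each of 97 tail arrays, ordered by the mean. Dashed lines mark the edges of the groups. The mean falls steadily from 11.53 to 7.85 and then to 6.48 in the last array.

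The groups were compared with the labels that the ranking did not use. Females made up 23 of 32 arrays in the upper group, 12 of 33 in the middle and 13 of 32 in the lower group. Upper against lower, Fisher's exact test gave p = 0.0226 and 0.0677 after adjustment over 3 labels, so the excess of females did not pass the correction. Mice whose dorsal skin was labelled anagen gave 3 of 32 upper, 5 of 32 middle and 6 of 32 lower tails (exact p = 0.474, adjusted p = 0.492; 1 middle tail had no dorsal array). Batch 3, which held 3 tails, all male, gave 0 upper, 1 middle and 2 lower tails (exact p = 0.492, adjusted p = 0.492).

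A property of the arrays also moved with the ranking. The median of all genes on an array was 6.61 ± 0.08 (SD, n = 32) in the upper group, 6.57 ± 0.07 (SD, n = 33) in the middle and 6.53 ± 0.12 (SD, n = 32) in the lower group. Upper and lower differed by 0.0846 (permutation test, 100000 resamples, two-sided, p = 0.00098). Of the 7 tail arrays least correlated with the median tail profile (lowest 0.966, against a median of 0.994), 1 was in the upper, 2 in the middle and 4 in the lower group, and their medians were 6.23 to 6.35. For several lists the counts with the array median in the fit are given as well, and the part of array quality in them was not tested.

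Between the groups, hair genes differed by a wide margin and no gene was lower by 2 times. Of 18816 genes tested with limma, without the 4 ranking keratins, 106 were higher in the upper group by at least 2 times (0.563%) and 0 were lower by as much (0%). With no limit on size, 2396 passed the threshold of 0.05 on the adjusted p as higher (12.7%) and 1714 as lower (9.11%), and the median difference over all genes was -0.01. This split turned with the scaling, to 1374 higher and 8726 lower with every array shifted to the same median, and to 1843 higher and 2601 lower after quantile normalization of the tails. At an unadjusted p under 0.05, 6907 genes differed. The groups were made from these same arrays, so a p here measures how a gene goes with the keratin mean among them and not a response to a treatment.

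Many of the 106 genes were of the sheath and shaft. Of them, 54 were in the lists of sheath, shaft, companion layer and matrix genes, 4 were in other lists and 48 in none. In all 106 the mean of the middle group lay between those of the other two. In 42 the values of the upper and lower group did not overlap at all, as in 46 of the 18816 genes tested (0.244%), and since the 106 were taken for their large differences between these groups nothing is read from the 42. The direction of the larger calls was one-sided too: 352 genes were higher by at least 0.5 and 4 were lower by 0.5 or more.

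**Figure D2:**
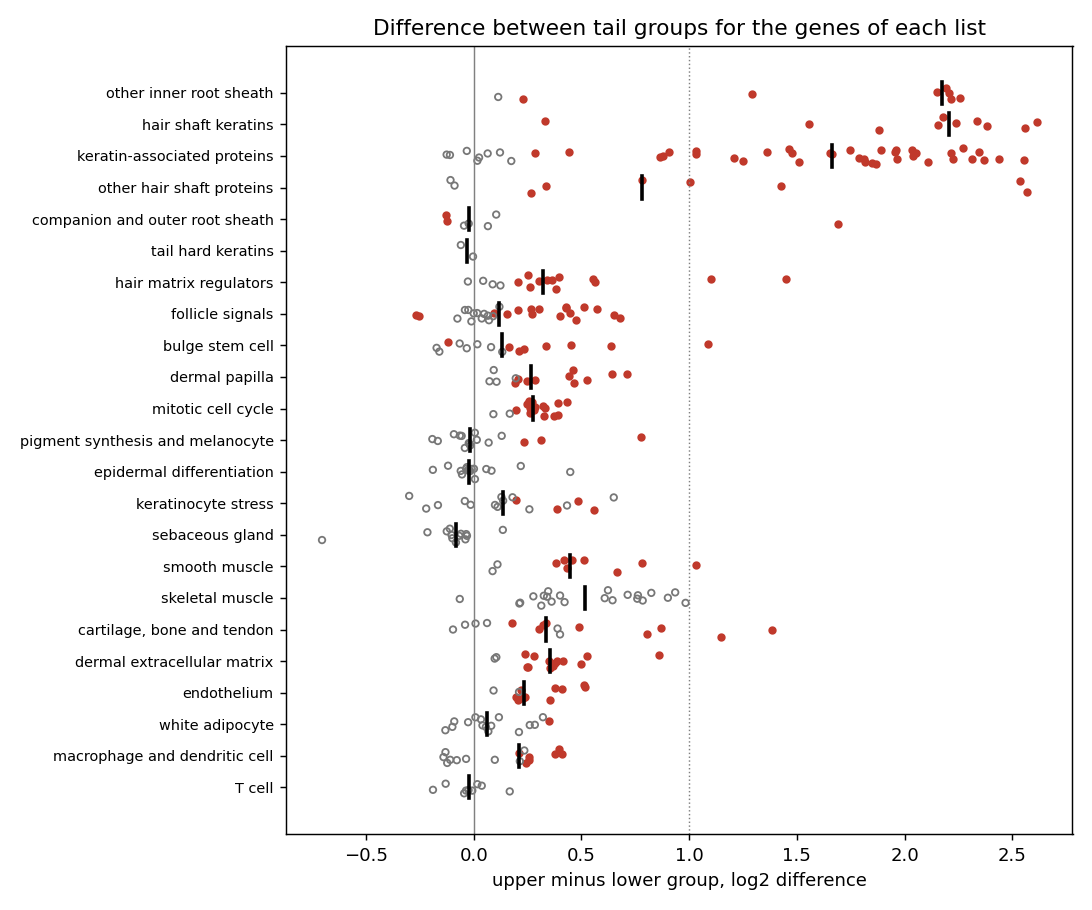
Upper minus lower group, as a log2 difference, for each gene of 23 lists. Filled points have an adjusted p under 0.05 (limma), open points do not, the bar is the median of the list and the dotted line marks 2 times. Sheath genes, shaft keratins and keratin-associated proteins have medians of 1.67 to 2.21, tail hard keratins lie close to 0, and outside the hair lists only Lgr5, Acta2, Chad and Thbs4 pass 1.

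Other genes of the inner root sheath were higher as well. Of 8 measured, 7 were called higher, 6 of them by at least 2 times, and 0 lower, with a median difference of 2.17. Padi3, an enzyme that turns arginine of sheath and shaft proteins into citrulline, ran from 8.11 to 9.60 in the upper group (median 8.85) and from 5.44 to 7.34 in the lower group (median 6.57). The groups did not overlap, and the difference was 2.21 (SE 0.10, adjusted p = 8.9e-37, the smallest of all genes).

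Trichohyalin and the remaining sheath keratins stood close to Padi3. Tchh, which encodes trichohyalin, ran from 9.79 to 11.33 (median 10.91) in the upper and from 6.35 to 9.88 (median 8.70) in the lower group, a difference of 2.26 (SE 0.13, adjusted p = 6.16e-29). Only the lowest upper and the highest lower array crossed there. Krt72, a type II sheath keratin, differed by 2.22 (SE 0.12) and Krt26, a type I sheath keratin, by 2.19 (SE 0.12), both without overlap. The transcription factors of the list moved far less: Cux1 by 0.23 (adjusted p = 6e-06), and Gata3, which acts in sheath differentiation, was at a mean of 10.18 in the upper and 10.06 in the lower group (difference 0.11, adjusted p = 0.0801). These 2 were picked out after their values were seen.

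Genes of the layers outside the sheath did not move as a group. Of 7 companion layer and outer root sheath genes, 1 was higher, 2 were lower and the median difference was -0.02. Krt75, the keratin of the companion layer that lies against the sheath, ran from 10.74 to 11.94 (median 11.33) in the upper and from 8.64 to 10.44 (median 9.67) in the lower group. It differed by 1.69 (SE 0.09, adjusted p = 1.06e-29), with no overlap. Krt14, a keratin of basal keratinocytes and the outer root sheath, was lower by a small margin, -0.12 (SE 0.03, adjusted p = 0.00142). Its partner Krt5, picked out after its value was seen, differed by -0.05 (adjusted p = 0.291).

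Hair shaft keratins rose as far as the sheath. All 10 measured members were called higher, 9 by at least 2 times, with a median difference of 2.21. Krt86, a type II keratin of the shaft cortex, ran from 9.59 to 11.82 (median 11.09) in the upper and from 5.51 to 9.82 (median 8.58) in the lower group, a difference of 2.61 (SE 0.17, adjusted p = 8.17e-25). Krt82, a shaft cuticle keratin, ran from 9.71 to 11.11 (median 10.35) and from 5.37 to 9.02 (median 7.78), a difference of 2.56 (SE 0.13). Krt82 had no overlap, while for Krt86 the highest lower tail exceeded the lowest upper tail.

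Within the shaft list 1 keratin stood apart. Krt33a differed by 2.38 (SE 0.18) and Krt31 by 2.33 (SE 0.17), both cortex keratins. Krt39, picked out after its value was seen, differed by 0.33 (SE 0.13, adjusted p = 0.0477), close to the threshold. When array medians were made equal, 9 of the 10 shaft keratins were called. Its lower group ran from 8.51 to 11.02 (median 9.78), against 9.50 to 10.88 (median 10.08) in the upper group. As the mean of the 10 keratins, the shaft list ran from 9.55 to 10.97 in the upper group, from 8.81 to 10.09 in the middle and from 6.30 to 9.06 in the lower group, so the upper and lower group did not overlap.

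A pair of hard keratins that are high in tail skin did not follow the rest. Krt84 ran from 12.89 to 13.20 (median 13.04) in the upper and from 12.78 to 13.27 (median 13.06) in the lower group. The difference was -0.00 (SE 0.02, adjusted p = 0.929). Krt36 ran from 12.18 to 12.78 (median 12.51) and from 12.15 to 12.70 (median 12.57), a difference of -0.06 (SE 0.03, adjusted p = 0.111). The ranges of the groups lay on top of each other for both, at the upper end of the scale, where differences between arrays can be compressed. With every array shifted to the same median, both were called lower, by a list median of -0.13 against -0.11 over all genes. That fit called 8726 of all 18816 genes lower.

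**Figure D3:**
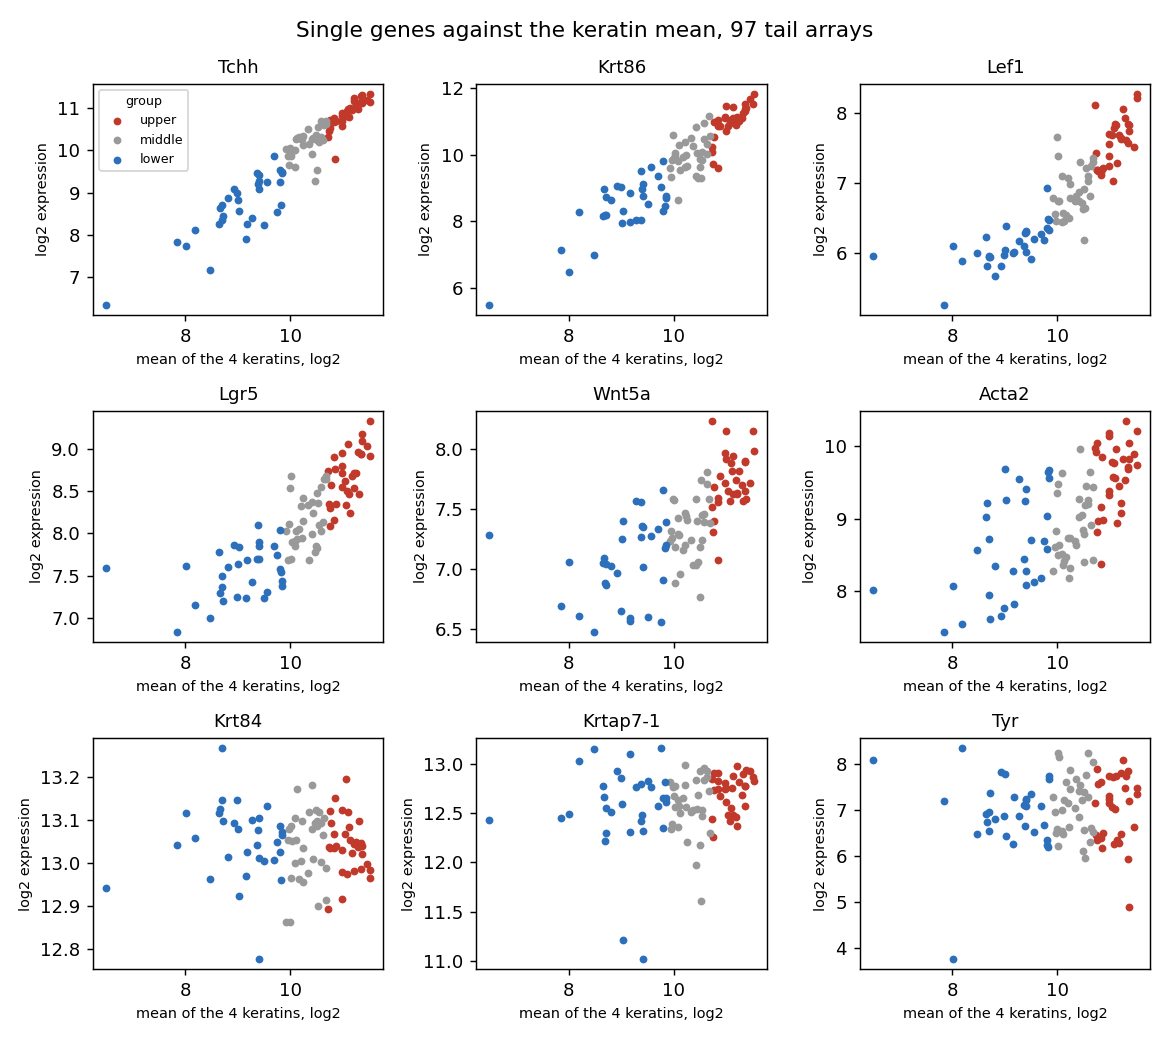
Log2 expression of 9 genes against the mean of the 4 ranking keratins in each of 97 tail arrays, coloured by group. Tchh, Krt86, Lef1 and Lgr5 rise along the whole gradient, Wnt5a and Acta2 rise with more scatter, and Krt84, Krtap7-1 and Tyr show no slope.

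Most keratin-associated proteins were higher too. These small cysteine-rich or glycine and tyrosine-rich proteins fill the space between the hard keratin filaments. Of 45 measured, 37 were higher, 32 by at least 2 times, and 0 lower, with a median difference of 1.67. Krtap24-1 ran from 9.79 to 11.46 (median 10.49) in the upper and from 5.01 to 9.32 (median 8.07) in the lower group, a difference of 2.56 (SE 0.14, adjusted p = 1.3e-29). Krtap11-1 ran from 10.37 to 11.83 (median 11.22) and from 5.48 to 10.23 (median 8.93), a difference of 2.44 (SE 0.17). Neither had an overlap. Members of a family are near-identical in places, so their probe sets may share signal.

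The remaining 8 keratin-associated proteins were not called. They were Krtap3-1, Krtap3-3, Krtap6-1, Krtap6-2, Krtap6-5, Krtap7-1, Krtap13 and Krtap21-1, with differences from -0.13 (Krtap13) to 0.17 (Krtap7-1). Krtap7-1 ran from 12.26 to 12.98 (median 12.75) in the upper and from 11.02 to 13.15 (median 12.60) in the lower group, and the upper values fell inside the lower range. In the lower group the median level of the 8 was 11.85, against 8.75 for the 37 called, and differences can be compressed at high levels. By class, 9 of 14 high glycine-tyrosine members were higher (median 0.97), and 28 of 31 of the others, mostly high or ultrahigh sulphur proteins (median 1.87). The median lower-group levels of these classes were 10.43 and 8.67, and the part of level in the counts was not tested. The difference between these classes and the 8 genes were picked out after their values were seen, and the classes were not tested against each other.

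Other shaft proteins were higher in 7 of 9, 4 of them by at least 2 times, with a median of 0.78. Dsg4, the desmoglein that joins cells of the shaft, ran from 8.32 to 9.71 (median 9.12) in the upper and from 4.06 to 7.68 (median 6.57) in the lower group, a difference of 2.53 (SE 0.14, adjusted p = 4.39e-29) with no overlap. Lyg2, a lysozyme G-like protein, differed by 2.57 (SE 0.14), Tchhl1, a relative of trichohyalin, by 1.42 (SE 0.11) and Padi1, another arginine deiminase, by 1.00 (SE 0.07). Among 12 proteases, inhibitors and junction proteins of sheath and shaft, 6 were higher and 1 lower (median 0.12). With the array median as a term 2 were higher and 1 lower (median 0.03), where all 18816 genes gave 1074 and 1802. With every array shifted to the same median 3 were higher and 4 lower (median 0.03), where all genes gave 1374 and 8726. The gap junction gene Gjb6 differed by 0.36 (adjusted p = 0.000595).

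Genes of no list were among the largest differences. Calhm4, a member of a channel family, had the largest of all genes. It ran from 9.33 to 11.02 (median 10.16) in the upper and from 4.16 to 8.82 (median 7.43) in the lower group, a difference of 2.62 (SE 0.16, adjusted p = 4.24e-27). Gprc5d, an orphan receptor, differed by 2.55 (SE 0.16), Fbp1, a gluconeogenic enzyme, by 2.36 (SE 0.12), Vsig8 by 2.34 (SE 0.12) and Lrrc15 by 2.10 (SE 0.12). None of these 5 overlapped between the groups. Ly6g6d (2.07), Crnn (2.02), Crym (1.99), Actbl2 (1.79), Ly6g6g (1.61), Slc7a8 (1.57) and Csdc2 (1.53) followed. All 12 were higher at adjusted p-values under the threshold, and Crym encodes a thyroid hormone-binding protein while Slc7a8 is an amino acid transporter.

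The promoters of the 106 genes were searched for the same letters as those of the ranking keratins. Of the 106, 83 had a promoter in the RefSeq table, 102 promoters in all. AGATAA or TTATCT was in 14 of 102 (13.7%, against 9.99% of all promoters). TATAAA or TTTATA was in 41 of 102 (40.2%, against 12.4%). CTTTGA or TCAAAG, the core of the site that Lef1 and Tcf proteins bind, was in 27 of 102 (26.5%, against 13.8%) and in 0 of the 4 ranking keratins. Among 7 promoters of hair shaft keratins, 5 held TATAAA, 5 held CTTTGA and 0 held AGATAA, on either strand. Among 7 promoters of the other sheath genes, 3 held TATAAA, 2 held CTTTGA and 1 held AGATAA, on either strand. These small sets were not tested against each other.

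Regulators of the hair matrix were higher in 12 of 16 with 0 lower (median 0.32). Lef1, the transcription factor through which Wnt signals act in the matrix and shaft, ran from 7.03 to 8.27 (median 7.62) in the upper and from 5.27 to 6.93 (median 6.07) in the lower group, a difference of 1.45 (SE 0.08, adjusted p = 3.28e-29). The groups did not overlap. Msx2, a homeobox factor of the matrix, differed by 1.10 (SE 0.07, adjusted p = 3.52e-25). Dlx3 differed by 0.56 (SE 0.05) and Hoxc12 by 0.55 (SE 0.11), and Foxn1, the factor lacking in nude mice, by 0.25 (SE 0.06, adjusted p = 0.00172). The highest lower-group values of Msx2, Dlx3, Hoxc12 and Foxn1 passed the lowest of the upper group.

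Follicle signals moved less and not all one way. Of 29 measured, 15 were higher, 2 lower and 0 reached 2 times, with a median of 0.12. With the array median as a term 10 were higher and 2 lower (median 0.08), and with the mean of the dermal matrix genes as a term 9 and 1 (median 0.07). Wnt5a, a Wnt of the follicle and dermis, ran from 7.07 to 8.23 (median 7.71) in the upper and from 6.48 to 7.65 (median 7.05) in the lower group, a difference of 0.68 (SE 0.07, adjusted p = 7.11e-14). Fgf7, a growth factor from the dermal papilla to the matrix, differed by 0.65 (SE 0.08), Wnt11 by 0.57 (SE 0.05) and Fgf5, which ends the growth phase, by 0.51 (SE 0.05). Shh, the matrix signal that drives growth, ran from 4.70 to 5.90 (median 5.35) in the upper and from 4.48 to 5.16 (median 4.85) in the lower group. Its difference was 0.45 (SE 0.06, adjusted p = 3.45e-09), and its targets Ptch1 (0.43) and Gli1 (0.40), added after their values were seen, were higher too. The 2 that were lower, also named after their values were seen, were Dkk4 (-0.27, adjusted p = 0.000254), a Wnt inhibitor, and Fgf18 (-0.25, adjusted p = 0.0185), a growth factor known from the resting follicle.

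Stem cell and dermal papilla genes gave mixed counts. Of 15 bulge stem cell genes, 7 were higher and 1 lower (median 0.13). With the array median as a term 3 were higher and 5 lower (median 0.02), in a fit that called 1074 of all 18816 genes higher and 1802 lower. With every array shifted to the same median 4 were higher and 4 lower, where all genes gave 1374 and 8726. With the mean of the dermal matrix genes as a term 2 were higher and 1 lower (median -0.03), where all genes gave 614 and 122. Lgr5, a receptor of the lower bulge and hair germ and later of the lower outer root sheath, ran from 8.08 to 9.32 (median 8.71) in the upper and from 6.84 to 8.10 (median 7.59) in the lower group. It was the only one past 2 times, at 1.09 (SE 0.08, adjusted p = 5.03e-23), with the edges just touching. Lhx2 differed by 0.64 (SE 0.08), while Krt15 was at a mean of 10.05 ± 0.34 (SD, n = 32) in the upper and 10.17 ± 0.32 (SD, n = 32) in the lower group (adjusted p = 0.605), and Lgr6, a receptor of the isthmus, differed by -0.16 (adjusted p = 0.167). Of 14 dermal papilla genes 10 were higher and 0 lower (median 0.26), 8 with the array median term (median 0.24) and 4 with the matrix term (median 0.16), with Vcan, a proteoglycan of the anagen papilla, at 0.71 (SE 0.09) and Alpl, alkaline phosphatase, at 0.64 (SE 0.12).

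Dividing cells showed small differences. Of 18 mitotic genes, 16 were higher, 0 lower and 0 by 2 times, with a median of 0.28. Cenpe, a kinetochore motor, ran from 6.42 to 8.16 (median 7.45) in the upper and from 6.10 to 7.74 (median 7.11) in the lower group, a difference of 0.43 (SE 0.09, adjusted p = 8.14e-05). Mki67 differed by 0.39 (SE 0.09, adjusted p = 0.000565), and the groups overlapped over most of their range for both genes. With the array median as a term, 4 of the 18 were higher (median 0.15), and with the mean of the dermal matrix genes as a term, 6 were, at a median of 0.24 that was close to the one without it. Ranked by the mean of the mitotic genes in place of the keratins, 17 tails of the upper keratin group were among the highest and 5 among the lowest of the same size, and 4 tails of the lower keratin group were among the highest and 19 among the lowest.

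Melanocyte and pigment genes did not follow the sheath. Of 16, 3 were higher and 0 lower, with a median of -0.02. Tyr, the enzyme that starts melanin synthesis, ran from 4.89 to 8.09 (median 7.18) in the upper and from 3.75 to 8.35 (median 6.94) in the lower group, a difference of 0.07 (SE 0.19, adjusted p = 0.817). Both groups spanned nearly the whole range of the gene. The 3 higher genes were Ednrb (0.77, adjusted p = 5.42e-13), an endothelin receptor also made by other cells, Mitf (0.31, adjusted p = 1.48e-05) and Kit (0.24, adjusted p = 0.00566). Ranked by the mean of this list, 11 tails of the upper keratin group were among the highest and 11 among the lowest of the same size.

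**Figure D4:**
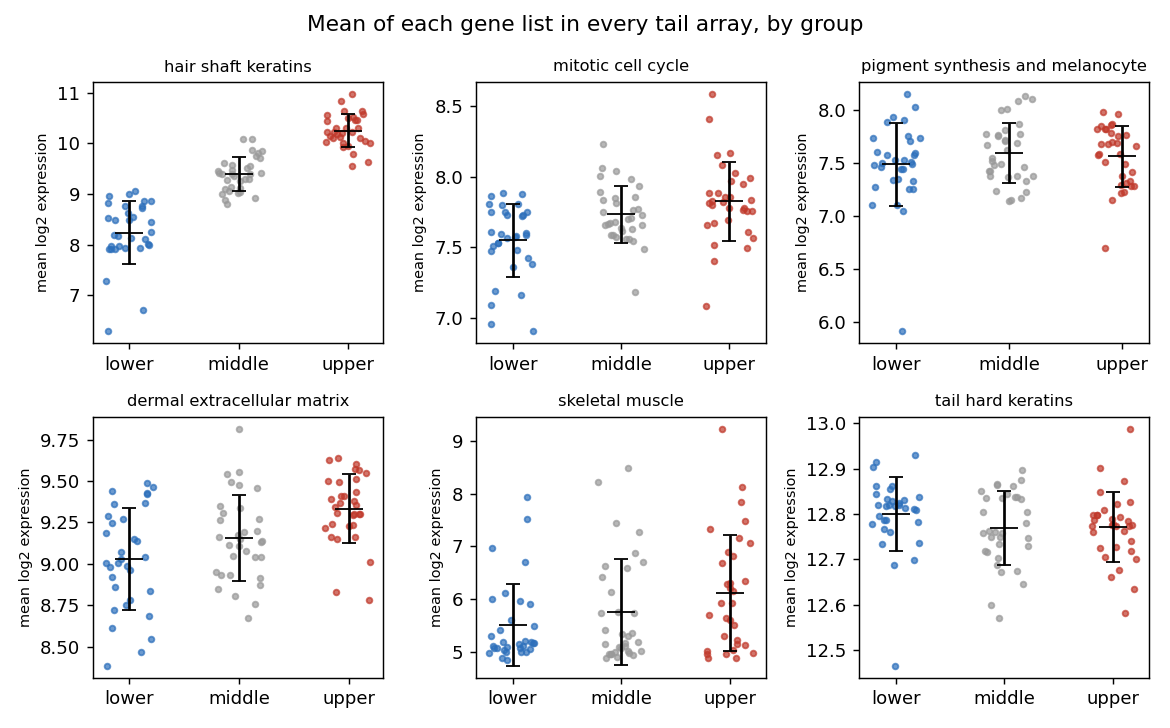
Mean log2 expression of 6 gene lists in each tail array (points), by group of the keratin mean, with the mean and SD of each group (32, 33 and 32 arrays). Shaft keratins separate the upper from the lower group, while the middle group overlaps both. Mitotic and dermal matrix genes shift with wide overlap. Pigment genes, skeletal muscle genes and tail hard keratins overlap throughout, though the skeletal muscle means were 5.51, 5.75 and 6.12 in the lower, middle and upper group.

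The surface epidermis and glands showed few calls. Of 16 epidermal differentiation genes 0 were called (median -0.02), of 13 sebaceous gland genes 0 were called (median -0.08), and of 16 white adipocyte genes 1 was higher (median 0.06). Rptn, an epidermal matrix protein, differed by 0.45 (adjusted p = 0.0809) and Scd3, a lipid desaturase of sebocytes, by -0.70 (SE 0.32, adjusted p = 0.0989). Of 17 keratinocyte stress genes 4 were higher and 0 lower (median 0.14), among them Krt6a, which is also a keratin of the companion layer, at 0.56 (SE 0.08, adjusted p = 7.29e-08). Its partner Krt6b differed by 0.65 (SE 0.39, adjusted p = 0.213). With every array shifted to the same median, 8 of the 16 epidermal and 9 of the 13 sebaceous genes were called lower. In that fit 8726 of all 18816 genes were lower, so nothing is read from these counts. The list medians were -0.12 and -0.18 against -0.11 over all genes.

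Genes of the dermis and deeper tissue were also higher in the upper group. Dermal extracellular matrix genes were higher in 13 of 15 (median 0.35), smooth muscle genes in 8 of 10 (median 0.44), endothelial genes in 10 of 12 (median 0.23) and genes of cartilage, bone and tendon in 9 of 15 (median 0.34), with 0 lower in each. Acta2, smooth muscle actin, which marks the arrector muscle, vessel walls and the dermal sheath of the follicle, ran from 8.38 to 10.34 (median 9.73) in the upper and from 7.45 to 9.69 (median 8.51) in the lower group, a difference of 1.03 (SE 0.13, adjusted p = 5.15e-10). Fn1, fibronectin, differed by 0.86 (SE 0.11). Chad, a cartilage and tendon protein, differed by 1.39 (SE 0.41, adjusted p = 0.00971), over 4.85 to 11.61 in the upper and 4.97 to 11.18 in the lower group. The groups overlapped almost wholly for Chad and in part for Acta2 and Fn1.

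Many of these calls were lost when the array median or the dermal matrix mean entered the fit. With the array median as a term, 4 of 15 dermal matrix, 3 of 10 smooth muscle, 0 of 12 endothelial and 2 of 15 cartilage, bone and tendon genes were higher, with medians of 0.15, 0.27, 0.10 and 0.09. With the dermal matrix mean as a term, 3 smooth muscle, 0 endothelial and 2 cartilage, bone and tendon genes were, with medians of 0.15, 0.02 and 0.04. With the same 2 terms in turn, 7 and 7 of the 8 other sheath genes and 39 and 37 of the 45 keratin-associated proteins were higher. Without the 7 arrays of low correlation, 10 of 15 dermal matrix, 6 of 10 smooth muscle, 6 of 12 endothelial and 5 of 15 cartilage, bone and tendon genes were higher, with medians of 0.28, 0.41, 0.19 and 0.32. The part of the amount of dermis in the smaller differences was not tested further.

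Muscle and immune markers were measured as signs of other tissue in the samples. Of 22 skeletal muscle genes 0 were called, with a median of 0.51, and their mean ran from 4.88 to 9.22 in the upper and from 4.84 to 7.94 in the lower group. Myl1, a fast muscle myosin chain, differed by 0.98 (SE 0.42, adjusted p = 0.0795). Without the tails of mice with anagen dorsal skin, 20 of the 22 were called higher (median 0.80), in a fit that called 3783 of all 18816 genes higher. The median was 0.20 with the array median as a term and -0.06 with the mean of the dermal matrix genes as a term, with 0 called in either. Of macrophage and dendritic cell genes 7 of 16 were higher (median 0.21), and 1 without the 7 arrays of low correlation or with the array median as a term. T cell genes gave 0 of 9, mast cell genes 2 of 10 higher, B cell genes 2 of 6 lower, neutrophil genes 1 of 8 lower, red cell genes 2 of 2 higher and Schwann cell genes 0 of 4. Over all genes 12.7% were higher and 9.11% lower. With the array median as a term, 0 mast cell, B cell and neutrophil genes were called. The B cell and neutrophil lists had upper-group means of 4.25 and 4.59, at the low end of the scale. Interferon response genes gave 0 of 15, clock genes 0 of 11, immediate early genes 1 of 14 higher and 1 lower, and cholesterol synthesis genes 1 of 11 lower. Of 5 genes whose level follows the inherited allele 0 were called. Of 4 sex-linked genes 0 were called too, but sex was a covariate of the fit, so nothing is read from that count. Before this adjustment, Xist had means of 9.39 in the upper and 7.22 in the lower group. Eif2s3y, of the Y chromosome, had 5.08 and 7.07, as the upper group held more females.

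The genes that were lower in the upper group formed no group with a size like that of the hair genes. Tmem45a2 was the largest, from 6.35 to 9.59 (median 8.30) in the upper and from 7.70 to 10.18 (median 9.16) in the lower group, a difference of -0.74 (SE 0.17, adjusted p = 0.000539). Firre, a long noncoding RNA of the X chromosome, differed by -0.51 (adjusted p = 0.0412), Cyp2b23 by -0.41 (adjusted p = 0.0193), Gpnmb, a glycoprotein of melanocytes and macrophages, by -0.36 (adjusted p = 0.02) and Plau, urokinase, by -0.36 (adjusted p = 0.000123). The groups overlapped for all 5. The median size of the 1714 lower calls was -0.17, against 0.25 for the 2396 higher ones. Small RNA genes were lower in 68 of 373 (18.2%, against 9.11% of all genes) and higher in 7. Of all lower calls, 68.4% had a tail mean below the median of gene means, against 37.2% of the higher calls. The part of low signal in the small RNA count was not tested.

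Females and males gave no call for a difference between them in the size of the effect. The interaction test called 0 genes in either direction, with 734 of 18816 at an unadjusted p under 0.05. The smallest p belonged to Fhod3, a regulator of actin, which differed between groups by 0.92 in females and 0.35 in males (difference 0.57, SE 0.12, adjusted p = 0.153). Females were 23 of the 32 upper and 13 of the 32 lower tails, so the fits by sex differ in size and few upper tails were male. Within females alone 111 genes were higher by at least 2 times and within males 96. Of the 106 genes, 106 were called higher at any size in females and 99 in males.

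Dorsal skin of the same mice was used as a measure that the ranking had not touched. Of 82 mice with a tail and a non-anagen dorsal array, 29 had a tail in the upper, 27 in the middle and 26 in the lower group. The dorsal mean of Krt25, Krt27, Krt71 and Krt73 was 5.07 ± 0.22 (SD, n = 29) where the tail was in the upper group and 5.16 ± 0.33 (SD, n = 26) where it was in the lower group, a difference of -0.09 (permutation test, two-sided, p = 0.237). Within dorsal batch 1 the difference was -0.02 (n = 26 and 20, permutation p = 0.738). Dorsal values near 5 are at the low end of the scale and may be close to background, so a difference between resting follicles could be missed.

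Over mice, the keratin means of tail and dorsal skin showed no correlation that passed a test. Pearson's r was -0.07 (n = 82, permutation p = 0.523) and Spearman's rho -0.10 (permutation p = 0.347), and r was -0.05 without the 2 tails farthest from the median. In dorsal batch 1, r was -0.02 (n = 72, permutation p = 0.869). Across all genes of the non-anagen dorsal arrays, limma called 0 genes higher (0%) and 0 lower (0%) by tail group, with 1825 of 18820 at an unadjusted p under 0.05. The smallest p-values belonged to Trmt61b (0.43, adjusted p = 0.0734), Tmem212 (-0.30, adjusted p = 0.0734) and Ebpl (0.37, adjusted p = 0.0734).

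In the mice with anagen dorsal skin both tissues had wide ranges. Among the 3 with a tail in the upper group, the keratin mean was 11.13 in tail and 7.19 in dorsal skin of the first mouse, 10.88 and 12.21 in the second, and 10.85 and 11.85 in the third. Among the 6 with a tail in the lower group, dorsal values ran from 6.21 to 12.33. The mouse with the lowest tail of all, at 6.48, a female, had the highest dorsal value of these 14 mice, 12.33. High dorsal values thus stood beside both high and low tails, and no test was run on these few mice.

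The difference between groups was tested for tail against dorsal skin. In 82 mice, 876 genes had a larger difference in tail (4.66%) and 207 a smaller one (1.1%), 5.76% in all, and 114 were larger by at least 2 times (0.606%). Without the mice of the 7 tail arrays of low correlation, 446 were larger and 37 smaller. The 106 genes were taken for their difference between these tail groups, so their calls here are no further evidence. Their difference in these mice ran from 0.69 to 2.49 in tail and from -0.46 to 0.40 in dorsal skin (median -0.05). By list, the tissue difference was called for 6 of 8 other sheath genes, 9 of 10 shaft keratins, 35 of 45 keratin-associated proteins, 8 of 16 matrix regulators, 9 of 29 follicle signals, 6 of 18 mitotic genes and 5 of 14 dermal papilla genes. It was also called for 5 of 10 smooth muscle and 5 of 15 cartilage, bone and tendon genes, but for 1 of 15 dermal matrix and 0 of 12 endothelial genes. The mice were grouped by tail values alone, and the hair lists hold many of the 106 genes. The counts by list are therefore a description, and nothing is read from the contrast between lists. Batch and tissue cannot be told apart, since tail and dorsal arrays share no batch, but batch entered the fit within each tissue.

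**Figure D5:**
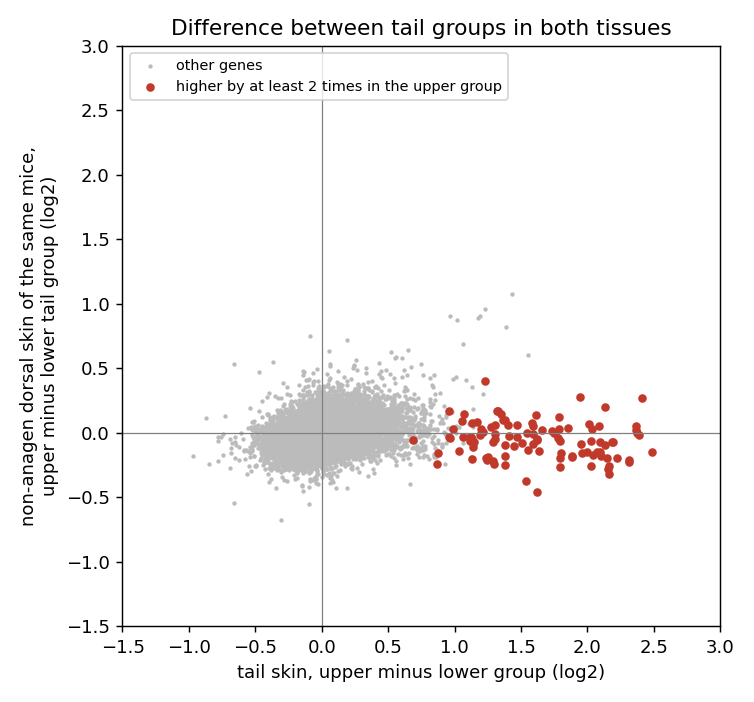
Upper minus lower tail group, as a log2 difference, in tail skin (horizontal) and in non-anagen dorsal skin of the same 82 mice (vertical), 1 point a gene. The 106 genes (red) run from 0.69 to 2.49 in tail skin and from -0.46 to 0.40 in dorsal skin.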

How the data were processed

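Total RNA (1 ug) from whole skin was labelled and hybridised to 1-colour mouse gene arrays. The authors deposited log2 expression values, made with RMA per the submitters' processing notes, with the version and settings not given in the sources used here. Of 35556 probe sets, 21218 named 1 gene and were used, 1881 named several and 12457 none. For 1386 genes with several probe sets the one with the highest mean was kept, leaving 18820 genes, with no filter on level. No arrays were identical, and none was left out of the main fits. The number of arrays limits the precision.

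Groups were compared with limma 3.58.1 in R 4.3.3 (lmFit, eBayes) with sex and batch as covariates over all 97 tails, with Benjamini-Hochberg adjustment, called at an adjusted p under 0.05. Tail and dorsal arrays were paired by mouse number in the labels: a tail's deviations correlated with its own dorsal array at a median of 0.17, against 0.00 for other mice, and above 0.1 in 61 of 82. Scipy 1.17.1 gave Fisher's exact and permutation tests. Limma was tested on simulated data. Promoters came from RefSeq tables on GRCm38.p6.

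The ranking keratins and the gene lists were chosen with earlier results of these data known. The genes named were drawn from the 10 largest calls each way and the 12 largest each way in no list. They were also drawn from the 4 largest differences of each list, and not all genes of these sets are named. Lgr5, Lgr6, Krt15, Krt84, Krt36, Tyr, Shh and Foxn1 were always named. The largest calls were taken among genes whose mean in the higher group passed 6.49. Genes outside these sets are marked as picked out, named or added after their values were seen. For the dorsal, tissue and sex comparisons the genes named were drawn from the 5 largest calls each way or, with none, the 3 smallest p-values. Alternatives changed the arrays, scaling, filter, probe set rule, ranking, covariates and fit.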

Additional observations from a re-analysis of the deposited data

Results flagged for a closer look

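The difference between groups differed between tail and dorsal skin by an interaction test for 876 genes that were larger in tail and 207 that were smaller, and for 114 by at least 2 times (limma, adjusted p under 0.05, 82 mice). Krt86 differed by 2.49 in tail and -0.15 in dorsal skin, a tissue difference of 2.64, and Krt31 by 2.17 and -0.32, a tissue difference of 2.48. Among keratin-associated proteins, the tissue difference was 2.54 for Krtap24-1, 2.44 for Krtap10-10 and 2.42 for Krtap11-1. The groups were cut on tail keratin values that shaft genes follow, so a larger difference in tail was built in for these genes. Their calls are a description and no further evidence.

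In the other direction Snora20, a small nucleolar RNA, differed by -0.45 in tail and 0.25 in dorsal skin, a tissue difference of -0.70 (adjusted p = 0.0303). The tissue difference was -0.60 for Rbm12b2, -0.53 for Rps21, a ribosomal protein gene, -0.48 for Mpv17l and -0.47 for Gm9457.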

How the results depend on the processing

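The larger differences held in the settings tried, which reuse the same tails. Between 87 and 118 genes were higher by at least 2 times and 0 were lower by 2 times. Of the 106 genes, 54 of which were in the sheath, shaft, companion layer and matrix lists, between 87 and 106 kept that size. At any size all 106 were called, except 105 with ranking by Krt27 alone, 99 in males, 102 with the array median as a term, 101 with the dermal matrix mean as a term, and 87 of the 87 that passed the filter on low values.

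Counts at any size moved, and the cause was not tested. Shifting arrays to the same median moved the median difference of all genes from -0.01 to -0.11 and gave 1374 genes higher and 8726 lower. The filter gave 1520 and 556 of 9406 genes tested, ranking by Krt27 alone 1582 and 946, females only 1347 and 616, males only 786 and 160, and leaving out tails of anagen mice 3783 and 3484. Quantile normalization gave 2601 lower. The array median as a term gave 1074 higher, and the dermal matrix mean as a term 614 higher and 122 lower. These terms and the fits without some arrays were chosen after seeing the data. With the matrix term the difference reversed for Cd34 (-0.0289), Des (-0.0263), Lgmn (-0.0228), Lox (-0.11), Lyve1 (-0.0191) and Mrc1 (-0.015). With the array median term it reversed for Mir680-1 (0.0434) and Mir680-2 (0.0588).

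In dorsal skin, all arrays with anagen as a term gave 1 gene higher and the shift gave 3 lower. For the tissue difference, the shift gave 521 larger, 1436 smaller and 1 smaller by at least 2 times, and leaving out 7 mice with arrays of low correlation gave 446 and 37. Mouse as a replicate block, which uses the pairing, gave 1020 larger and 287 smaller, and 114 larger by at least 2 times.

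The groups are sections of a gradient, and array medians and dermal matrix transcripts differed between them, so differences well under 2 times are the least certain. Compression of differences near the ends of the scale was not tested.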
